A study of Mus musculus with 6 samples.

Results

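The genes described here encode the H3K4 methyltransferases of the COMPASS family and the core subunits that these enzymes share. They are the 10 rows of the deposited gene count table, out of 54532, whose symbol is Kmt2a, Kmt2b, Kmt2c, Kmt2d, Setd1a, Setd1b, Wdr5, Ash2l, Rbbp5 or Dpy30. All 10 passed the expression filter and were tested with 16471 genes in all. The libraries are RNA-seq of newborn mouse epidermis, the outer stratified layer of skin, separated from the dermis with Dispase II. Of these, 3 carry the genotype label Paxbp1 knockout and 3 the label wild type, numbered 1 to 3 in each group and called knockout and wild type below. The labels give no strain, exact age, deleted exons or promoter of a Cre driver, and do not say whether a library holds 1 animal.

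COMPASS complexes add methyl groups to lysine 4 of histone H3, a mark of promoters and enhancers. A catalytic SET-domain protein is bound by a shared core of WDR5, RBBP5, ASH2L and DPY30, which raises its activity. The SETD1 enzymes place most trimethylation at promoters, KMT2A and KMT2B act at selected promoters with menin, and KMT2C and KMT2D monomethylate enhancers. KMT2D has been tied to the expression of differentiation genes in keratinocytes. Paxbp1 encodes an adaptor that was described in muscle progenitors as linking Pax3 and Pax7 to a WDR5-containing H3K4 methyltransferase complex. The comparison therefore asks whether transcripts of this machinery differed in epidermis labelled Paxbp1 knockout.

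Totals ran from 16315317 to 17816327 counts per library. Paxbp1 itself had 2007, 1159 and 1467 counts in wild type libraries 1 to 3, and the knockout libraries had 2370, 1127 and 1125 (log2 fold change 0.10 ± 0.29 (SE), edgeR adjusted p = 0.783). Since the deleted exons are not known and counts cover the gene as a whole, this does not check the labels, and each direction below is that of the libraries labelled knockout. Keratinocyte markers were present in all libraries, but their summed level was 82600 to 138000 CPM (counts scaled to a common library size) in wild type libraries against 5170 to 13300 CPM in knockout libraries, and 9 of 10 were lower. Markers of other cells differed as well. Of 8 fibroblast markers 7 were higher and 1 lower (sums of 455 to 459 against 3950 to 10000 CPM), and 8 of 8 macrophage markers were higher (160 to 175 against 9250 to 17500 CPM). All 6 neutrophil markers tested of 8 were higher (1.59 to 3.00 against 938 to 1750 CPM), with Ly6g and Retnlg at no count in the wild type, and 3 of 3 endothelial markers tested of 5 were higher (0.955 to 2.84 against 181 to 353 CPM), with Emcn at no wild type count. Of 3 Langerhans cell markers the 2 tested, Cd74 and Itgax, were higher (sums of 21.1 to 26.6 against 121 to 223 CPM). Most of the knockout sums was Cd74, at 99.4, 204 and 162.5 CPM. Cd207 did not pass the filter, with no wild type count and 1, 2 and 5 counts in knockout libraries 1 to 3. Of 4 T cell markers tested out of 5, 2 were lower and none higher (7.16 to 22.9 against 2.04 to 7.84 CPM, overlapping). Their counts were low, with Cd3e at 13, 8 and 1 in knockout libraries 1 to 3. Over 20 alternative analyses 0 to 3 T cell markers were lower. Beside all these counts of markers, 28.7% of all tested genes were higher and 25.1% lower. The part of cell makeup in the results below was not tested, and in bulk tissue fewer cells of a type and less RNA per cell cannot be told apart.

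Of the 10 COMPASS genes, Ash2l and Dpy30 fell in the knockout, none rose, and 8 were not called. Ash2l fell by 45.4% and Dpy30 fell by 40.3%. The call was an adjusted p under 0.05 in edgeR's quasi-likelihood test, with Benjamini-Hochberg adjustment over all genes tested. By the same rule 53.8% of all tested genes were called, 28.7% as higher and 25.1% as lower. The median absolute log2 fold change was 0.15 over the 10 genes and 0.90 over all genes tested. Their median log2 fold change was -0.15, against -0.03 for all genes. With the replicate number as a block 60.0% of genes were called, and Ash2l and Dpy30 were again the only members among them. The labels do not pair the libraries, and this block was taken from the same data.

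**Figure D1:**
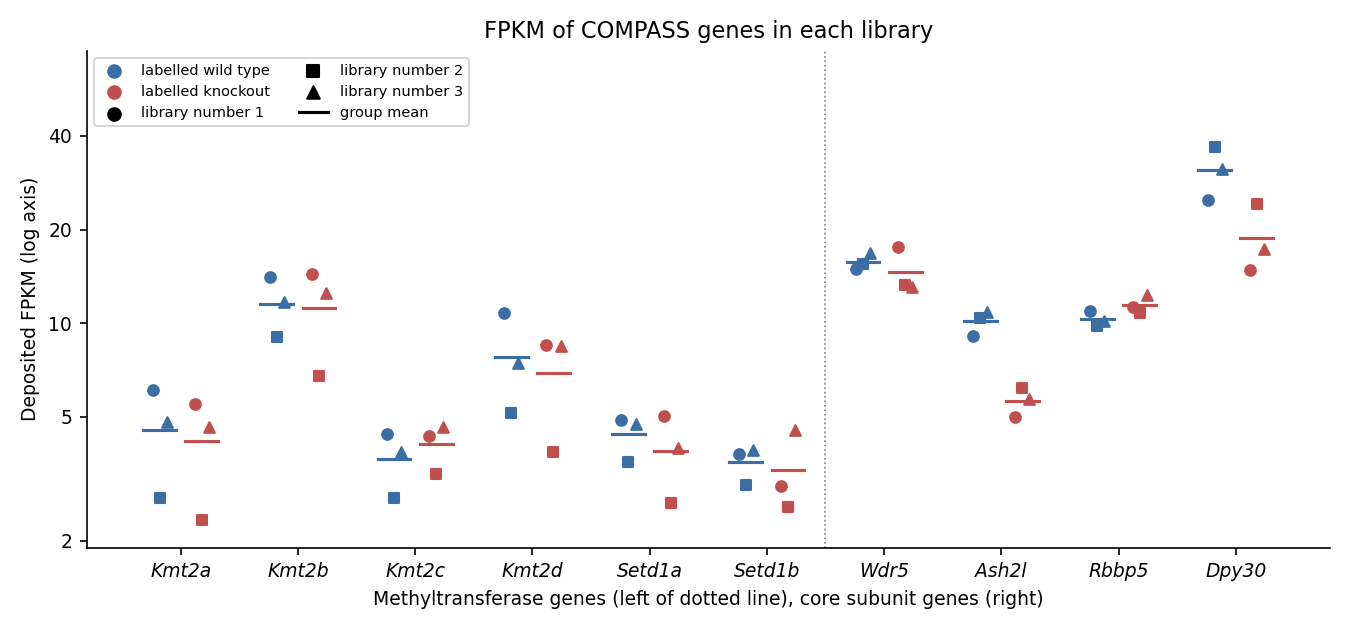
Deposited FPKM (log axis) of the 10 COMPASS genes in each of 6 libraries, with bars at the group means (n = 3 each) and marker shapes for the library numbers. The groups separate for Ash2l (9.13 to 10.9 against 5.0 to 6.21 FPKM) and Dpy30 (24.9 to 36.7 against 14.9 to 24.2 FPKM), and the number 2 libraries are lowest for every methyltransferase.

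Levels can be compared between genes only per unit length, on the deposited FPKM scale (fragments scaled by gene length and library total). The length used is that of the gene entry, and the transcripts present may be shorter. The order of genes below and the size of ratios between genes depend on this length. In the wild type Dpy30 was the most abundant of the 10, at 31.0 ± 5.91 FPKM (SD, n = 3), followed by Wdr5 at 15.7 ± 1.01 FPKM. The ranges of these 2 genes did not overlap each other or that of the next gene. Kmt2b (11.6 ± 2.52), Rbbp5 (10.3 ± 0.585) and Ash2l (10.1 ± 0.904 FPKM) had overlapping ranges. Below them came Kmt2d (7.80 ± 2.85), Kmt2a (4.55 ± 1.70), Setd1a (4.41 ± 0.721), Kmt2c (3.67 ± 0.838) and Setd1b (3.59 ± 0.489 FPKM), each overlapping its neighbour in this order. Dpy30 and Wdr5 thus exceeded every enzyme in each wild type library. In the knockout Dpy30 had 18.8 ± 4.81 FPKM, Wdr5 14.6 ± 2.58 FPKM, Rbbp5 11.5 ± 0.791 FPKM and Ash2l 5.64 ± 0.609 FPKM.

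Ash2l encodes the subunit that, with RBBP5, contacts the SET domain and stimulates methylation. The gene (ENSMUSG00000031575) lies on chromosome 8, 25815996 to 25847694, minus strand, mm10. Its counts were 1565, 1540 and 1878 in wild type libraries 1 to 3 and 800, 863 and 821 in the knockout. Every knockout library lay below every wild type library. Mean CPM went from 93.1 ± 7.19 to 50.9 ± 5.54 (SD, n = 3 each). The log2 fold change was -0.87 ± 0.20 (SE, edgeR adjusted p = 0.00308), a fold of 0.546 with a 95% interval of 0.405 to 0.737. The differences between libraries of the same number were -0.91, -0.74 and -0.97 on the log2 CPM scale. Ash2l passed the test in all 20 alternative analyses, with adjusted p from 0.000766 to 0.0203.

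Dpy30 encodes a small subunit that docks on ASH2L. The gene (ENSMUSG00000024067) lies on chromosome 17, 74299474 to 74323944, minus strand. It had 546, 697 and 688 counts in wild type libraries 1 to 3 and 304, 429 and 320 in the knockout. Here too the groups did not overlap, though by CPM the highest knockout library (28 CPM, number 2) was close to the lowest wild type library (29.8 CPM, number 1). The means were 36.3 ± 6.41 and 21.7 ± 5.64 CPM (SD, n = 3 each). The log2 fold change was -0.74 ± 0.25 (SE, edgeR adjusted p = 0.0256), a fold of 0.597 with a 95% interval of 0.409 to 0.872. The same-number differences were -0.79, -0.60 and -0.88. Leaving out wild type library 2 or 3, or knockout library 1 or 3, ended the call (edgeR adjusted p = 0.104, 0.0737, 0.0631 and 0.0733). With the replicate block it was held at an edgeR adjusted p of 0.00433. That pairing is not in the labels and was taken from these same data, so the smaller p is no separate support. For comparison, 62.3% of all tested genes had CPM ranges that did not overlap between the groups, against 2 of these 10.

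Wdr5 encodes the WD-repeat protein that holds a short arginine motif of the enzymes and is the subunit linked to PAXBP1 in muscle. The gene (ENSMUSG00000026917) lies on chromosome 2, 27515157 to 27536535, plus strand. Its counts were 1023, 923 and 1166 in the wild type and 1130, 736 and 755 in the knockout, so knockout library 1 lay among the wild type libraries. The log2 fold change was -0.13 ± 0.20 (SE, edgeR adjusted p = 0.611), with a 95% fold interval of 0.667 to 1.25. Rbbp5 encodes the subunit that joins WDR5 to ASH2L and lies on chromosome 1, 132477365 to 132505659, plus strand (ENSMUSG00000026439). It had 821, 636 and 771 counts in the wild type and 791, 655 and 778 in the knockout, with overlapping groups. Its log2 fold change was 0.12 ± 0.19 (SE, edgeR adjusted p = 0.605), with a fold interval of 0.816 to 1.46. Both intervals leave room for moderate differences. That of Rbbp5 lies above the fold of 0.546 fitted for Ash2l, and so does that of Wdr5.

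**Figure D2:**
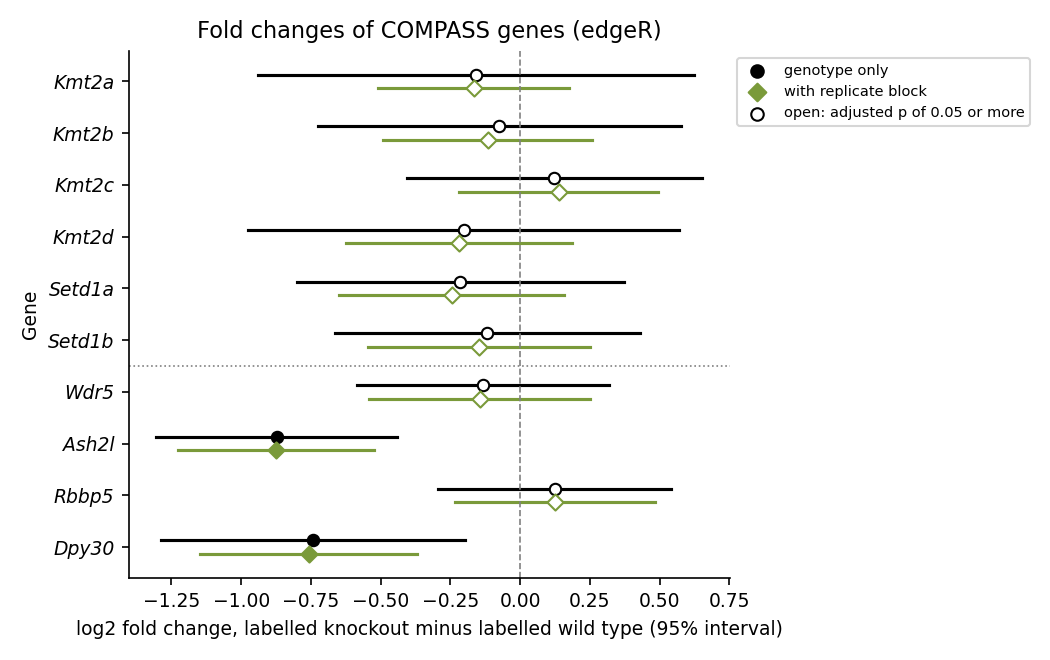
Log2 fold changes of the 10 genes (labelled knockout minus labelled wild type) with 95% intervals from edgeR, for genotype only (black) and with the replicate block (green); filled symbols passed an adjusted p of 0.05. Ash2l (-0.87) and Dpy30 (-0.74) are the filled ones, and the intervals of the other 8 genes cross 0 in both fits.

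The promoters of the core subunits are shown because Dpy30 fell while Wdr5 and Rbbp5 did not pass the test; the starts differ in CpG content, which is a description only. RefSeq windows (GRCm38.p6, the mm10 assembly) were found for 7 of the 10 genes, and Ash2l, Kmt2b and Setd1b were unmatched. Each line gives the 100 bases nearest upstream of a start site that hold no annotated exon, on the gene's strand. Capitals mark CpG dinucleotides. The windows are chr2:27515047-27515146 (plus strand), chr1:132477265-132477364 (plus strand), chr17:74323945-74324044 and chr17:74316464-74316563 (both minus strand).
Wdr5: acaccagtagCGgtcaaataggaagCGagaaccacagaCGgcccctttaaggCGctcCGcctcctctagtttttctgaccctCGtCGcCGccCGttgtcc
Rbbp5: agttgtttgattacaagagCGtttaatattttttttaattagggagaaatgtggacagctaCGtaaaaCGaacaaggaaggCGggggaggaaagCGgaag
Dpy30, upstream start: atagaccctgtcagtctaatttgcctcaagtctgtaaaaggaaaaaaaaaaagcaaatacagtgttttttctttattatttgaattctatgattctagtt
Dpy30, downstream start at 74316433: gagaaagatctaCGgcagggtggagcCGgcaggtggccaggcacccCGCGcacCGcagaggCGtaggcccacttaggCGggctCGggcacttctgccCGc

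These stretches hold 9, 5, 0 and 9 CpG dinucleotides. Over the full 250 bases before each start the numbers were 12 for Wdr5, 10 for Rbbp5, 1 for the upstream Dpy30 start and 21, 28 and 34 for 3 downstream Dpy30 starts, of which the one with 21 is printed. Annotated Dpy30 exons take 30, 69 and 250 bases of those 3 windows. The median of all 32851 RefSeq windows was 6. The enzyme genes with a window had 25 (Setd1a), 26 (Kmt2d), 29 (Kmt2a) and 48 (Kmt2c). In the Setd1a window 209 of the 250 bases are annotated Setd1a exon, so its value is mostly that of transcribed sequence. The GC box GGGCGG was searched on both strands and occurred 12 times before Kmt2c, 4 times each before Kmt2a and Kmt2d, and 1 time before Wdr5. It occurred in 32.7% of all windows. The motif CCAAT occurred in 33.8% of all windows and, among these genes, in that of the upstream Dpy30 start alone. The longer ETS motif CCGGAAG, searched as this exact string, was in 6.91% of all windows and had no match in those of the 7 genes. Shorter forms such as GGAA, which the printed Wdr5, Rbbp5 and upstream Dpy30 stretches hold, were not searched. Gene-level counts do not show which Dpy30 start was used.

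None of the 6 methyltransferase genes passed the test. Kmt2a (ENSMUSG00000002028, chromosome 9, 44803355 to 44881296, minus strand) encodes the founding member of the family, which keeps Hox genes active. It had 1946, 756 and 1540 counts in the wild type and 1642, 604 and 1247 in the knockout. Its paralog Kmt2b (ENSMUSG00000006307, chromosome 7, 30568858 to 30588726, minus strand) had 2574, 1431 and 2151 counts and 2468, 1007 and 1925 counts. In both genes library 2 was the lowest of each group, and the groups overlapped. The log2 fold changes were -0.16 ± 0.35 for Kmt2a (SE, edgeR adjusted p = 0.730) and -0.07 ± 0.29 for Kmt2b (edgeR adjusted p = 0.847).

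Kmt2c and Kmt2d encode the enhancer enzymes. Kmt2c (ENSMUSG00000038056, chromosome 5, 25271798 to 25498783, minus strand) had 1705, 925 and 1506 counts in the wild type and 1569, 1027 and 1517 in the knockout. Kmt2d (ENSMUSG00000048154, chromosome 15, 98831669 to 98871204, minus strand) had 4119, 1699 and 2854 counts in the wild type and 3028, 1193 and 2706 in the knockout. The log2 fold change was 0.12 ± 0.24 for Kmt2c (SE, edgeR adjusted p = 0.691). For Kmt2d it was -0.20 ± 0.35 (edgeR adjusted p = 0.649). The groups overlapped for each gene, again with library 2 lowest.

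Setd1a and Setd1b encode the general promoter enzymes. Setd1a (ENSMUSG00000042308, chromosome 7, 127776670 to 127800122, plus strand) had 636, 403 and 621 counts in the wild type and 609, 278 and 434 in the knockout. Setd1b (ENSMUSG00000038384, chromosome 5, 123142193 to 123168629, plus strand) had 878, 605 and 912 counts in the wild type and 648, 480 and 884 in the knockout. The log2 fold changes were -0.21 ± 0.26 (SE, edgeR adjusted p = 0.520) and -0.12 ± 0.25 (edgeR adjusted p = 0.712). Over the 6 enzymes the 95% fold intervals reached from 0.509 (lower end, Kmt2d) to 1.57 (upper end, Kmt2c), so a change as large as that of Ash2l lay inside the intervals of Kmt2a and Kmt2d and outside those of the other 4. With the replicate block the intervals narrowed to between 0.638 (Setd1a) and 1.41 (Kmt2c), and the adjusted p-values were 0.262 to 0.566.

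The spread within groups followed the library number. In 12 of 12 combinations of enzyme gene and group, library 2 was the lowest, by 0.25 to 0.75 below its group mean on the log2 CPM scale. For the core subunits this held in 2 of 8 combinations, and Dpy30 was instead highest in library 2 (0.25 above the mean in the wild type and 0.40 in the knockout). Across all genes tested the deviation of library 2 was lower for longer genes (Spearman's rho -0.31 in the wild type and -0.39 in the knockout, over 16471 genes, which are not independent replicates). The median deviation of the 4381 genes of at least 6000 bases in the deposited table was -0.12 and -0.17 in these libraries. The enzyme genes measure 6795 (Setd1a) to 20291 bases (Kmt2c), Dpy30 1146 bases. These lengths are those of gene entries, and counts per gene do not show the lengths of the transcripts present. By that measure Ash2l has 8969 bases, and it was at 0.02 and 0.16 in library 2. Whether RNA length or quality accounts for this pattern was not tested.

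**Figure D3:**
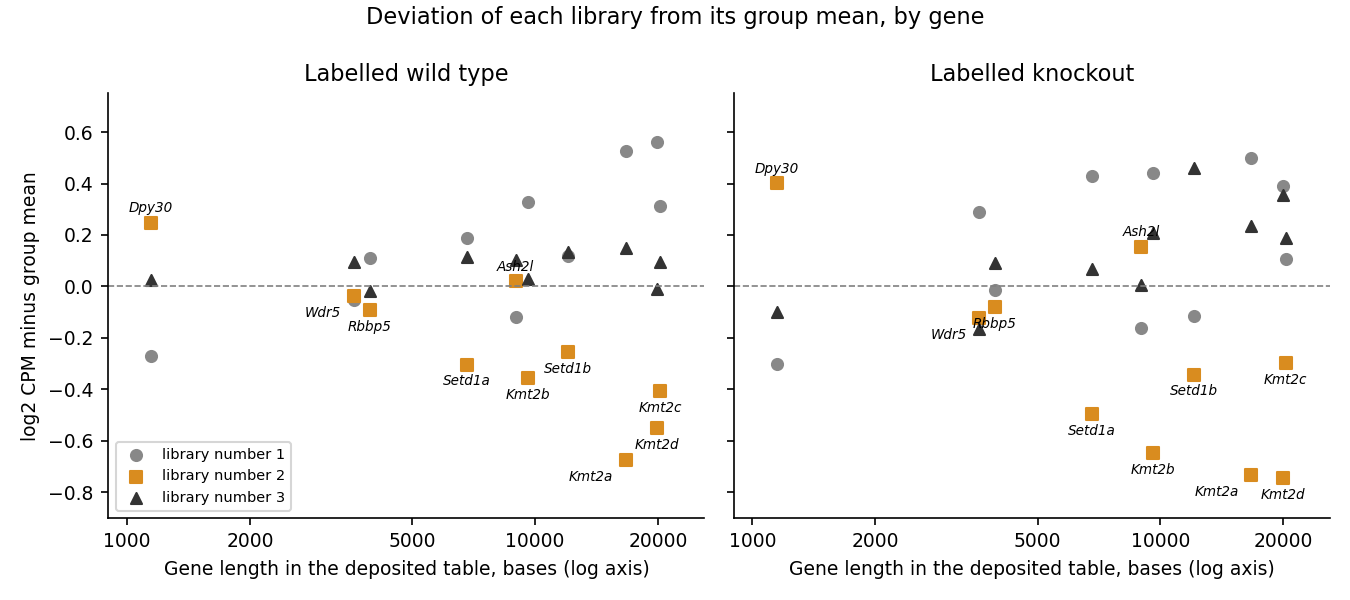
Deviation of log2 CPM from the group mean for the 10 genes in each library, against the gene length in the deposited table (log axis), with the wild type at the left and the knockout at the right and the number 2 libraries in orange with gene names. The 6 methyltransferase genes lie 0.25 to 0.75 below the mean in library 2, while Dpy30 lies above it.

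Ratios between genes were also compared inside each library, where library scaling cancels. A spread that depends on gene length need not cancel between genes of unlike length. A two-sided exact permutation test of 3 against 3 libraries cannot give a p under 0.10, and the 7 ratios tested were adjusted together. The FPKM ratio of Ash2l to Rbbp5 was 0.835, 1.06 and 1.07 in the wild type and 0.443, 0.577 and 0.462 in the knockout. Its groups did not overlap, and the log2 ratio differed by -1.0 (exact p = 0.10, adjusted p = 0.35). Dpy30 to Rbbp5 was 2.28, 3.76 and 3.06 in the wild type and 1.32, 2.25 and 1.41 in the knockout, highest in library 2 of each group. These groups also did not overlap, with a log2 difference of -0.88 (exact p = 0.10, adjusted p = 0.35). Ash2l to Dpy30 overlapped between the groups (0.366, 0.282 and 0.349 against 0.336, 0.257 and 0.328), with a log2 difference of -0.12 (exact p = 0.50). Between libraries of the same number it was nevertheless lower in the knockout in 3 of 3 pairs (mean paired log2 difference -0.12 ± 0.024 (SD), exact sign-flip p = 0.25, the smallest that 3 pairs can give). Wdr5 to Rbbp5 overlapped too, with a log2 difference of -0.27 (exact p = 0.20). The 4 ratios of core subunits were chosen after the values of the genes were seen.

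Ratios within the paralog pairs of the enzymes all overlapped between the groups. Kmt2a to Kmt2b was 0.435, 0.304 and 0.412 in the wild type and 0.383, 0.345 and 0.373 in the knockout (log2 difference -0.05, exact p = 0.80). Kmt2c to Kmt2d was 0.407, 0.535 and 0.518 in the wild type and 0.509, 0.846 and 0.551 in the knockout (log2 difference 0.36, exact p = 0.30). It was higher in the knockout in 3 of 3 same-number pairs (exact sign-flip p = 0.25), and without knockout library 2 the difference was 0.13. Setd1a to Setd1b was 1.29, 1.18 and 1.21 in the wild type and ranged more widely in the knockout, at 1.67, 1.03 and 0.872 (log2 difference -0.10, exact p = 0.80).

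**Figure D4:**
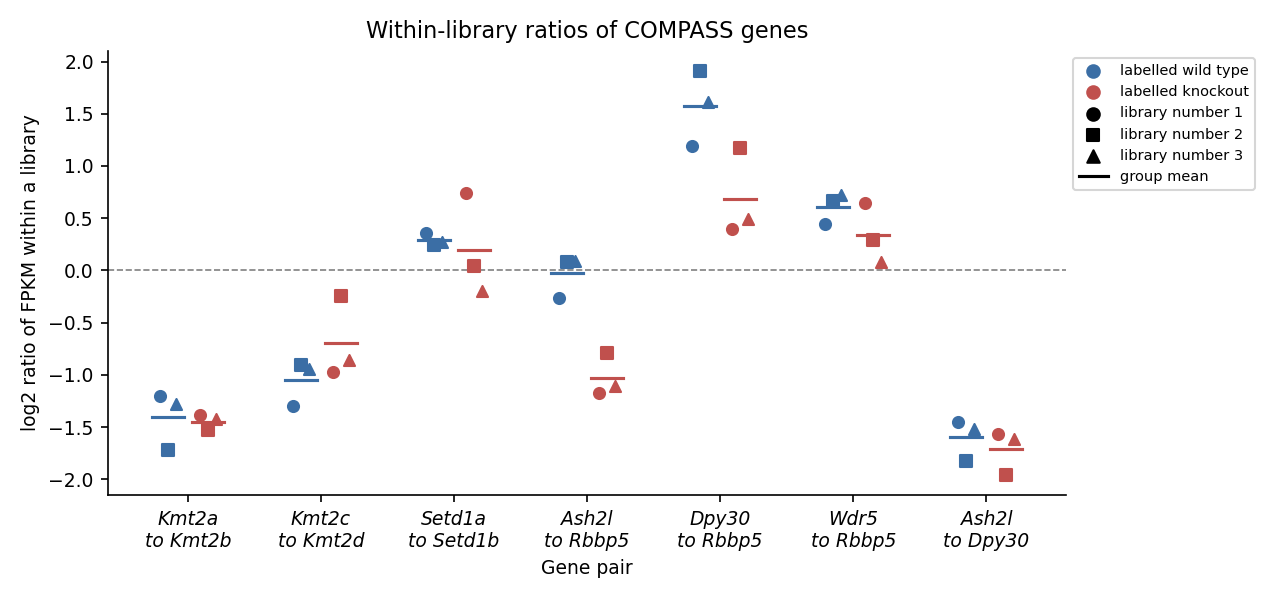
Log2 ratio of FPKM between 2 COMPASS genes inside each library, with bars at the group means (n = 3 each). The groups separate for Ash2l to Rbbp5 and Dpy30 to Rbbp5 and overlap for the other 5 pairs.

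Kmt2b took 32.7% ± 1.38 of the summed FPKM of the 6 enzymes in the wild type and 33.0% ± 2.0 in the knockout (SD, n = 3 each). Kmt2d took 21.5% ± 2.64 and 20.2% ± 1.97. Mean shares of the other 4 enzymes ran from 10.3% to 12.6% (wild type) and from 10.4% to 12.6% (knockout). Kmt2c had the lowest p of the 6 shares (10.4% ± 0.326 against 12.6% ± 2.37, exact permutation p = 0.10, adjusted p = 0.60 over the 6 shares), and its knockout values were 10.6%, 15.2% and 12%. The sum itself varied with the library number, at 44.1, 26.3 and 36.5 FPKM in the wild type and 40.8, 21.5 and 38.8 FPKM in the knockout.

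Across the 6 libraries Kmt2a, Kmt2b and Kmt2d varied together (Pearson's r of log2 CPM 0.973 to 0.978), and so did Ash2l and Dpy30 (0.923), while Rbbp5 ran opposite to Dpy30 (-0.848). These values describe 6 libraries that share the group difference and the library numbers. Among 11411 other protein-coding genes with at least 5 CPM, the genes closest to Ash2l included Ncaph (0.9991), which encodes a condensin subunit, and Hmgn5 (0.9978), a nucleosome-binding protein gene. Closest to Dpy30 were Pgls (0.9978), of the pentose phosphate pathway, Stoml2 (0.9969), of the mitochondrial membrane, and Etfa (0.9967), an electron transfer flavoprotein subunit gene. Closest to the mean of the 10 genes were Fam208b (0.9953), Cxxc1 (0.9943) and the Integrator subunit gene Ints3 (0.9912). Cxxc1 encodes the CpG-binding subunit of the SETD1 complexes. In the same libraries 5 of 6 proliferation markers were lower (sums of 714 to 864 CPM against 295 to 350 CPM in the knockout), against 25.1% of all tested genes. The other, Pcna, overlapped between the groups (edgeR adjusted p = 0.346). The part of proliferation in the falls of Ash2l and Dpy30 was not tested.

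Accessory subunits of COMPASS complexes, which are not part of the shared core, gave 3 lower and none higher of 11 tested out of 12 listed, close to the 25.1% of all tested genes that were lower. Pagr1a had no count in any library. Bod1, which encodes a subunit of SETD1B complexes also known from mitosis, fell from 81.8 ± 12.2 to 36.8 ± 14.7 CPM (SD, n = 3 each; log2 fold change -1.15 ± 0.29 (SE), edgeR adjusted p = 0.00623). Men1, which encodes the KMT2A and KMT2B partner menin, fell from 46.4 ± 5.40 to 28.6 ± 2.40 CPM (edgeR adjusted p = 0.0121). Psip1, which encodes the chromatin reader LEDGF that binds menin and KMT2A, fell from 62.6 ± 5.80 to 41.1 ± 4.72 CPM (edgeR adjusted p = 0.0231). The groups did not overlap for these 3 of the 11 genes tested, against 62.3% of all tested genes. With the replicate block 5 members of this list were lower and 1 higher, where 60.0% of all genes were called. The added ones were Hcfc1 (adjusted p = 0.0168) and Paxip1 (0.00866), which were lower, and Ncoa6 (0.0418), which was higher. The lower members numbered 1 to 5 over the 20 alternative analyses, with 1 on leaving out wild type library 1.

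Among other SET-domain genes linked to H3K4, 3 of 6 tested out of 7 listed were lower and none higher, against 53.8% of all tested genes called and 25.1% lower. Smyd1 did not pass the filter. Setd7, which encodes a lysine monomethyltransferase, fell from 64.8 ± 0.920 to 29.0 ± 6.20 CPM (log2 fold change -1.16 ± 0.21 (SE), edgeR adjusted p = 0.000874). Smyd2 fell from 20.8 ± 0.955 to 9.05 ± 1.98 CPM and Smyd3 from 24.7 ± 4.33 to 11.7 ± 2.86 CPM (edgeR adjusted p = 0.00156 and 0.00431). Kmt2e, a KMT2 relative without known H3K4 methyltransferase activity and the most abundant gene of this list, had 2476, 767 and 2251 counts in the wild type and 2019, 505 and 2508 in the knockout (edgeR adjusted p = 0.993). It was lowest in library 2 of each group, as the COMPASS enzymes were.

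The H3K4 demethylases gave 2 lower and none higher of 6, against 25.1% of all tested genes lower. Kdm1b fell from 37.7 ± 3.93 to 17.7 ± 3.44 CPM (SD, n = 3 each; edgeR adjusted p = 0.00167) and its paralog Kdm1a, the LSD1 gene, from 120 ± 6.66 to 80.8 ± 8.15 CPM (edgeR adjusted p = 0.0276). Over the alternatives 1 to 3 demethylases were lower, with 1 on leaving out any wild type library or knockout library 3. The number was also 1 without both libraries numbered 2 and without the expression filter. Without knockout library 2, 1 demethylase was higher, and none was in the other alternatives. Of 16 readers of methylated H3K4, 1 was higher and 1 lower, against 53.8% of all tested genes called. Phf23 rose from 63.0 ± 7.18 to 94.8 ± 15.7 CPM and Zcwpw1 fell from 7.42 ± 1.72 to 3.56 ± 0.788 CPM (edgeR adjusted p = 0.0348 and 0.0178). With the replicate block 3 readers were lower and 1 higher. Over the alternatives 0 to 4 readers were lower and 0 to 1 higher. None was called without wild type library 1, without both libraries numbered 1 or without both numbered 2. None was higher without wild type library 2 or 3 or knockout library 2 or 3. With all 6 libraries, none was higher under upper-quartile scaling, library-size scaling or no expression filter.

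The NSL acetyltransferase complex, which also contains WDR5, gave 1 higher and 1 lower of 7, against 53.8% of all tested genes called. Phf20 rose from 38.3 ± 6.62 to 57.6 ± 7.42 CPM and Kansl2 fell from 64.2 ± 3.11 to 45.1 ± 5.34 CPM (edgeR adjusted p = 0.0380 and 0.0452). Over the alternatives each direction had 0 to 1 calls, with none in either on leaving out any wild type library or knockout library 3. The same held without both libraries numbered 1, without both numbered 2, or without the expression filter. None was higher under upper-quartile or library-size scaling, and none was lower under RLE scaling, with DESeq2 or without knockout library 1. Ogt, the most abundant gene of that list, had 503 ± 195 and 372 ± 96.5 CPM (edgeR adjusted p = 0.285). Of the PAX partners of the Paxbp1 protein, Pax3, which melanocytes express, fell from 9.61 ± 2.36 to 3.01 ± 0.289 CPM (edgeR adjusted p = 0.000860). Of 4 melanocyte markers 2 were lower and 1 higher, against 53.8% of all tested genes called. Over the alternatives 2 melanocyte markers were lower and 0 to 2 higher. Pax7 did not pass the filter.

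**Figure D5:**
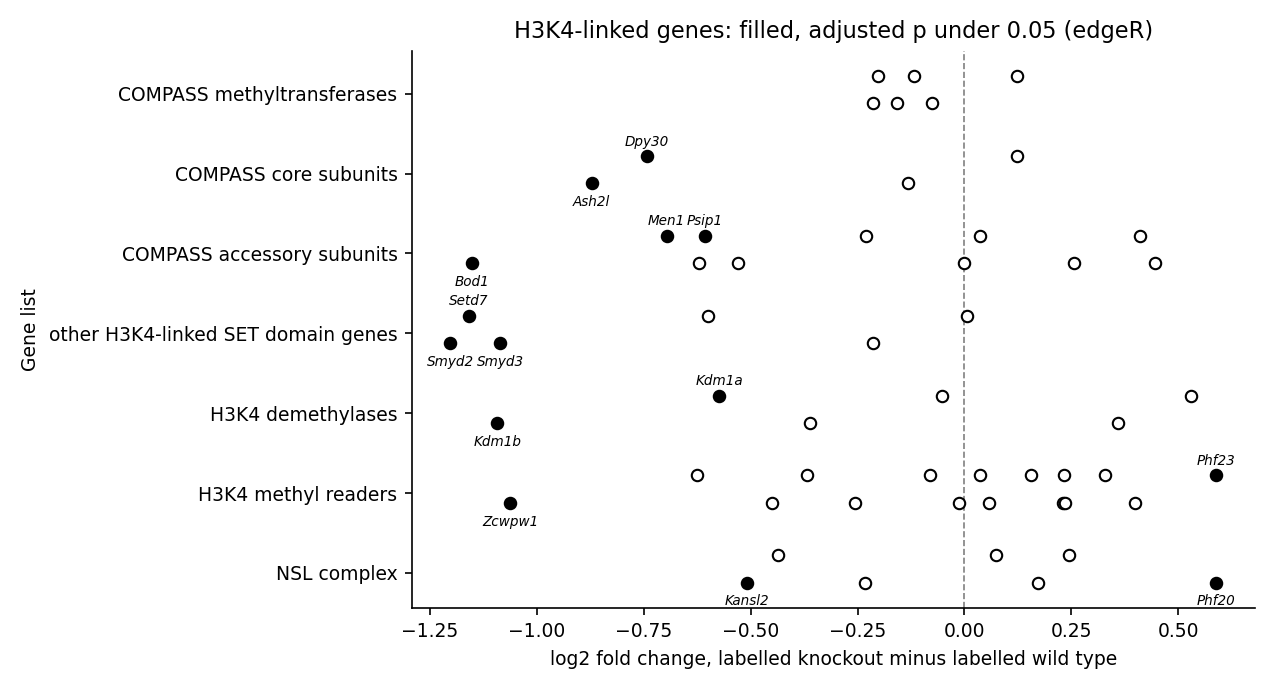
Log2 fold changes of the COMPASS genes and 5 related gene lists (labelled knockout minus labelled wild type), 1 point a gene, filled and named where the edgeR adjusted p was under 0.05. The 6 methyltransferase genes lie near 0 with none filled, and the filled genes of the other lists lie between -1.20 (Smyd2) and 0.59 (Phf20 and Phf23).

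Few counts were assigned to overlapping entries of the table. Genes that overlap a COMPASS gene on either strand had at most 1.64 CPM in any library (Gm42585 within Kmt2c, in knockout library 1). Gm49388 overlaps Setd1a on the same strand over 14515 bases, with at most 0.065 CPM (knockout library 2). How reads in such an overlap were assigned is not known, so low counts there do not show that Setd1a lost no reads. The lincRNA gene AI480526 starts 527 bases from Setd1b on the other strand without overlapping it. It had 22.6, 11.7 and 7.64 CPM in the wild type and 9.63, 3.92 and 8.42 CPM in the knockout (log2 fold change -0.93 ± 0.43 (SE), edgeR adjusted p = 0.0919).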

How the data were processed

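RNA-seq libraries of newborn mouse epidermis were grouped by the genotype label. The authors deposited read counts per gene and FPKM values per gene for 6 libraries. The tools HISAT2 (2.0.5) and featureCounts (1.5.0-p3) and the build mm10 are listed in the submitters' processing notes. The sources used here give no parameters, strand setting or annotation release, so overlapping genes and near-identical paralogs may share reads. The deposited FPKM values equal counts over gene length and a total of 15486588 to 19227474 per library, not the table's totals. Here counts were tested with edgeR 4.0.16 (R 4.3.3; TMM factors, expression filter with minimum count 10 and minimum total 15, robust quasi-likelihood, genotype only). Levels are CPM with TMM factors, SE is the size of the log2 fold change divided by the square root of F, and intervals use its t distribution. Alternatives used DESeq2 1.42.0, limma 3.58.1 and other settings, and the test was also run on simulated counts.

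The COMPASS genes and all gene lists were chosen with earlier results of these data known. Named genes of related lists are the up to 3 called genes with the smallest adjusted p and the most abundant by FPKM; Hcfc1, Paxip1, Ncoa6 and neighbouring genes were named after their values were seen. Nearest patterns used log2(CPM + 0.5), and 1 gene that this rule names is not reported here. Same-numbered libraries deviated together from their group means across genes (correlations 0.23, 0.34 and 0.18; other pairs -0.32 to 0.07), so the numbers were taken to pair the libraries, although the labels do not say what they mark. Libraries of a group differed by more than sampling noise (chi-square over degrees of freedom 32.9 to 90.3). No label names separate animals, and p-values then reflect only how these libraries vary, which may be technical.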

Additional observations from a re-analysis of the deposited data

How the results depend on the processing

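No COMPASS gene was higher in any of the 20 alternative analyses, and Ash2l was lower in all 20. The number of lower members was 2 except on leaving out 1 library, where it ranged from 1 to 2, Dpy30 losing its call without wild type library 2 or 3 or knockout library 1 or 3. With the replicate block it was 2. The remaining 8 genes were called in none, and the lowest adjusted p among them was 0.0581 (Kmt2d, length offset with replicate block). Signs of these uncalled values turned as follows (log2 fold changes). Without wild type library 1: Kmt2a 0.14, Kmt2b 0.11, Kmt2d 0.13. Without knockout library 2: Kmt2a 0.13, Kmt2b 0.19, Kmt2d 0.090, Setd1a 0.0012, Setd1b 0.047. Leaving out each library in turn gave -0.44 to 0.14 for Kmt2a, -0.29 to 0.19 for Kmt2b, -0.45 to 0.13 for Kmt2d, -0.44 to 0.0012 for Setd1a, -0.38 to 0.047 for Setd1b and -0.062 to 0.29 for Kmt2c. Without both libraries numbered 2 Kmt2b was at 0.040, and without both numbered 1 Setd1b at 0.00052. The all-gene median (-0.03) went to -0.22 with upper-quartile and -0.18 with library-size scaling, with Kmt2c at -0.070 and -0.036 and Rbbp5 at -0.070 and -0.032. Under the first the split of all calls went from 4721 higher and 4139 lower to 4151 and 5147. The gene length offset gave -0.050 for Kmt2c, and -0.048 with the replicate block. The log2 ratio differences over left-out libraries ran from -0.21 to 0.051 for Kmt2a to Kmt2b (0.011 without wild type library 3), from -0.37 to 0.097 for Setd1a to Setd1b, and from -0.23 to 0.0071 for Ash2l to Dpy30. For Kmt2c to Kmt2d they ran from 0.13 to 0.50. The fits without both libraries of a number and with a length offset were chosen after seeing the data.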
